A study of Homo sapiens with 42 samples.

Results

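The genes described here are 42 genes of mitosis, the division of the copied chromosomes between daughter cells. They were given as a list of gene symbols, drawn up with earlier results of these data known, and found by name among the 60240 genes of the deposited table. All 42 passed a filter on low values (at least 10 in at least 3 libraries), as did 22168 genes of the table. The study used RNA sequencing of human acute myeloid leukaemia (AML) cell lines given decitabine, a cytidine analogue that enters DNA and traps DNA methyltransferases, or the solvent DMSO. The 5 lines analysed here are SKM-1, KG-1, OCI-AML3, MOLM-13 and MOLM-14, each labelled wild type and each a permanent culture from 1 patient. Decitabine was given at 100 nM in 3 daily doses, and RNA was taken at 72 hours from both arms. Each of the 10 groups had 3 libraries. The labels mention wells seeded in duplicate or triplicate and do not say that replicates are separate cultures, so the p-values rest on a spread between libraries that may be technical. MOLM-13 and MOLM-14 are sister lines from the same patient.

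Cells enter mitosis when cyclin B binds the kinase CDK1 and CDC25 phosphatases switch it on. Chromosomes then attach through kinetochores to a spindle built by motor proteins, a checkpoint delays anaphase until all are attached, and the anaphase-promoting complex marks cyclins and securin for destruction. Many of these genes are transcribed late in the cell cycle under FOXM1 and B-MYB with the MuvB proteins, so that their RNA is high in cycling cells, and leukaemia cell lines cycle continuously.

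Depth was estimated from the step between low values. It ranged from 1.97 to 75 (reads in genes, in units of 1e+06), with the deepest libraries in SKM-1 (50.9 to 69.3) and MOLM-13 (42.9 to 75). In OCI-AML3, MOLM-14 and KG-1 the second replicates were shallow in both arms (6 libraries, 1.97 to 4.59), and results that rest on these lines are also given without them where they moved. The myeloid markers CD33, SPI1, MPO, LYZ, CSF3R and PTPRC were at 10 or more in every library, while the haemoglobin genes HBB and HBA1 and the erythroid enzyme ALAS2 stayed below 10. The summed share of the 42 genes in the total value was between 0.346% and 0.871% in the 30 libraries.

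Promoter sequences are shown because genes of this class often carry a cell cycle homology region (CHR), the element bound by MuvB complexes, beside CCAAT boxes. The RefSeq table (GRCh38.p14) held windows for 36 of the 42 genes, from 250 bases before to 50 bases after a transcription start, 46 windows in all. The letters TTTGAA, on either strand (TTCAAA), occurred in 29 of the 46 windows (63%), against 15.2% of all 35116 windows of that length. CCAAT, on either strand (ATTGG), occurred in 35 of 46 (76.1%), against 34.6% of all windows, and both occurred in 52.2% against 5.9%. In 22 of the 26 genes with the hexamer, the nearest one began within 50 bases of a start. The windows below run 5′ to 3′ on the gene's strand from 150 bases before to 30 bases after the RefSeq start, with both motifs in capitals. They belong to genes whose values are given below and that have a window with the hexamer near the start.
KIF11 (chr10:92592980-92593159, + strand): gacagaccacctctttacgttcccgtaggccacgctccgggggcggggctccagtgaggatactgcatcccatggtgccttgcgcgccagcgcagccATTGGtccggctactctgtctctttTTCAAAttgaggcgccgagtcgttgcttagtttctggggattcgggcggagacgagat
HMMR (chr5:163460482-163460661, + strand): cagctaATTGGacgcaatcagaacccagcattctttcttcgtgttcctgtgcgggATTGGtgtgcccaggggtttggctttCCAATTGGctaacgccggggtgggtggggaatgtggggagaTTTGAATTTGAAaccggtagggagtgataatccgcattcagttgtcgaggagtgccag
KIF4A (chrX:70289954-70290133, + strand): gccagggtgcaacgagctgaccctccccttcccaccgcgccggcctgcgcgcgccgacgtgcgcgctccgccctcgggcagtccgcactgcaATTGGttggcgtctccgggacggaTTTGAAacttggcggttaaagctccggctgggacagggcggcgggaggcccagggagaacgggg
BUB1B (chr15:40160919-40161098, + strand): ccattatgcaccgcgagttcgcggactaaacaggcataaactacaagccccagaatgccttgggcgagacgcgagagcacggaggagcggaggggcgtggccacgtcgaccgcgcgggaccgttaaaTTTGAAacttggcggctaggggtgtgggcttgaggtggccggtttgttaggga
SPC25 (chr2:168890401-168890580, - strand): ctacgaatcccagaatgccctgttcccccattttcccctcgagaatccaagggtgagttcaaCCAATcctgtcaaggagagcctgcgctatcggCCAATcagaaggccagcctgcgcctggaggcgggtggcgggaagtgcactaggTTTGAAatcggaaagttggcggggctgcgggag

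The hexamer began 28 bases before the start in KIF11, 34 in KIF4A, 23 in BUB1B and 3 in SPC25. HMMR held 2 copies end to end, at 28 and 22 bases before its start, and 4 CCAAT matches, of which CCAATTGG counts as 2 because it reads the same on both strands. BUB1B had no CCAAT match in the 180 bases printed. These are matches of letters and no measure of binding.

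In 3 of the 5 lines the mitosis genes were mostly lower after decitabine, in KG-1 they were mostly higher, and in OCI-AML3 their median barely moved. Differences are decitabine minus DMSO on the scale log2(normalised count + 1). The median over the 42 genes was -0.34 in MOLM-13, -0.35 in MOLM-14, -0.30 in SKM-1, 0.25 in KG-1 and 0.02 in OCI-AML3, while the medians over all genes tested lay between 0.01 and 0.08. Library by library, the median of the 42 genes relative to the line's DMSO mean was between -0.39 and -0.33 in the decitabine libraries of MOLM-13. It was between -0.38 and -0.32 in MOLM-14, between -0.31 and -0.29 in SKM-1 and between 0.25 and 0.27 in KG-1. The decitabine libraries of OCI-AML3 lay between -0.03 and 0.01, inside the range of all DMSO libraries, from -0.04 to 0.03. In the other 4 lines the decitabine and DMSO libraries did not overlap. In these bulk samples, fewer cells in mitosis and less RNA of these genes per cell cannot be told apart.

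**Figure D1:**
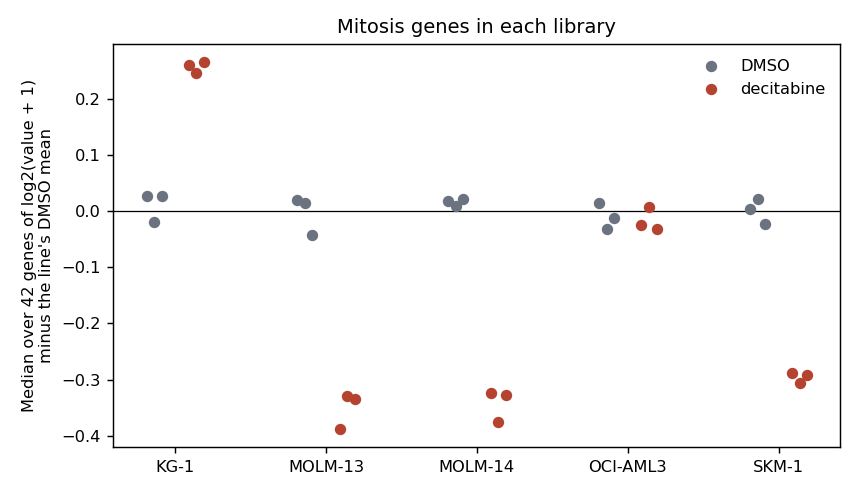
Each point is 1 library, 3 per line and treatment; the vertical axis is the median over the 42 genes of log2(normalised count + 1) minus the line's DMSO mean. Decitabine libraries of MOLM-13, MOLM-14 and SKM-1 lie below -0.28, those of KG-1 at 0.25 to 0.27, and those of OCI-AML3 among the DMSO libraries.

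A gene was called where limma's adjusted p (Benjamini-Hochberg over the 22168 genes) was below 0.05. In MOLM-13, 14 of the 42 genes fell and 0 rose, against 1.67% and 1.45% of all tested genes. In MOLM-14, 22 fell and 2 rose (CDC25B and KIF20A), against 4.77% and 6.26% of all tested genes. In SKM-1, 20 fell and 1, UBE2C, rose, against 3.32% and 5.70%. In KG-1, 12 rose and 0 fell, against 3.12% and 0.663%. At an unadjusted p below 0.05 in limma, 22 were higher and 0 lower. The share of all tested genes at an unadjusted p below 0.05 was not counted, here or below. In OCI-AML3, CCNA2 fell and KIF4A rose, 1 of 42 in each direction, against 1.64% and 3.74%.

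The 9 genes that fell in all of MOLM-13, MOLM-14 and SKM-1 were CCNA2, CCNB1, TPX2, HMMR, TOP2A and the motors KIF11, KIF14, KIF20B and KIF23. Of the 12 genes that rose in KG-1, 10 fell in at least 1 other line: CCNB1, AURKA, KIF2C, KIF4A, KIF20A, HMMR, ASPM, TOP2A, PRC1 and ANLN. The other two were CDC25B and UBE2C. By sign alone, 36 genes were higher in KG-1 and lower in both MOLM-13 and SKM-1. CCNA2 and SPC25 were lower in all 5 lines, and CDC25B was higher in all 5. No line gave a call for 11 genes: CCNB2, CDK1, CDC25C, AURKB, INCENP, CENPA, CENPE, NUF2, SPC25, NUSAP1 and PTTG1.

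Groups of 3 libraries that did not overlap were seen for 31 lower and 0 higher genes in MOLM-13 (17.0% and 22.8% of all tested genes) and for 35 lower and 2 higher in SKM-1 (18.9% and 29.2%). They were seen for 25 lower and 2 higher in MOLM-14 (9.50% and 11.2%), for 0 lower and 17 higher in KG-1 (6.44% and 10.2%) and for 4 lower and 2 higher in OCI-AML3 (7.42% and 10.1%). The line counts depend on how the spread is estimated. With the spread taken from the 6 libraries of a line alone, limma called 28 lower genes in MOLM-13, 33 lower and 1 higher in SKM-1, 1 lower in MOLM-14 and 0 in KG-1 and OCI-AML3. Calls over all genes, both directions together, also rose, to 4918 of 15589 in MOLM-13 and 7447 of 16977 in SKM-1. The main fit had called 693 and 1999 of 22168. In MOLM-14, KG-1 and OCI-AML3 these small fits called 328 of 16938, 109 of 16911 and 54 of 17606 genes. At an unadjusted p below 0.05 these small fits gave 21 lower and 2 higher in MOLM-14, 15 higher in KG-1 and 1 lower in OCI-AML3. Shares of all genes at that threshold were not counted. Without the 6 shallow libraries the counts were 25 lower in MOLM-13 and 26 lower and 1 higher in SKM-1. They were 23 lower and 2 higher in MOLM-14, 12 higher in KG-1 and 3 lower and 1 higher in OCI-AML3. The share of all tested genes called in that fit was not counted. After quantile normalization 4 of the genes fell in MOLM-13 and 12 in SKM-1. Calls over all genes were then 284 and 2010 of 22168 in these lines, both directions together. The mitochondrial share of the total was higher with decitabine without overlap in 3 lines. It was 12.5% to 14.1% with DMSO and 18.2% to 19.1% with decitabine in MOLM-13. In SKM-1 it was 13.7% to 15.1% and 15.5% to 18.2%, and in MOLM-14 8.06% to 9.09% and 10.5% to 11.5%. In OCI-AML3 it was 8.627% to 10.98% with DMSO and 9.973% to 15.57% with decitabine. In KG-1 it was 10.38% to 12.12% and 11.8% to 12.57%. The groups of OCI-AML3 and KG-1 overlapped, and both ends of the range were higher with decitabine. Scaled without mitochondrial genes, 12 genes fell in MOLM-13, 12 in SKM-1 and 16 in MOLM-14, with medians of -0.28, -0.24 and -0.30. Calls over all genes were then 559, 1991 and 2374 of 22009 in these lines, both directions together. With that scaling the median of all genes was 0.13 in MOLM-13, 0.14 in SKM-1 and 0.05 in MOLM-14.

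Single libraries decided part of the calls within lines. The KG-1 count was 7 without DMSO replicate 1 or decitabine replicate 2 of KG-1, and 6 without DMSO replicate 2 or decitabine replicate 3. Of the 12 KG-1 calls, those of HMMR, TOP2A and ANLN held without each of the 30 libraries in turn. In MOLM-13 the count was 8 without decitabine replicate 1 of that line, where CCNB1, PLK1, AURKA, KIF20B, KIF23 and TOP2A were lost. In MOLM-14, leaving out decitabine replicate 2 ended the rises of CDC25B and KIF20A, and the falls of FOXM1, MAD2L1, KIF2C, KIF4A, KIF14, TOP2A, ECT2 and ANLN. BUB1 was lost without DMSO replicate 2. The MOLM-14 falls of FOXM1, ANLN and KIF14 were lost on leaving out any of 21, 17 and 14 of the 30 libraries, singly. The KG-1 rise of PRC1 and the MOLM-13 fall of KIF23 were each lost without any of 20. In SKM-1 the count was 13 without decitabine replicate 2 and 12 without decitabine replicate 3. The SKM-1 falls of TTK, KIF4A, KIF14 and ASPM were lost without any 1 of its 6 libraries, and those of FOXM1, BIRC5, BUB1, HMMR and TOP2A without some of them.

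**Figure D2:**
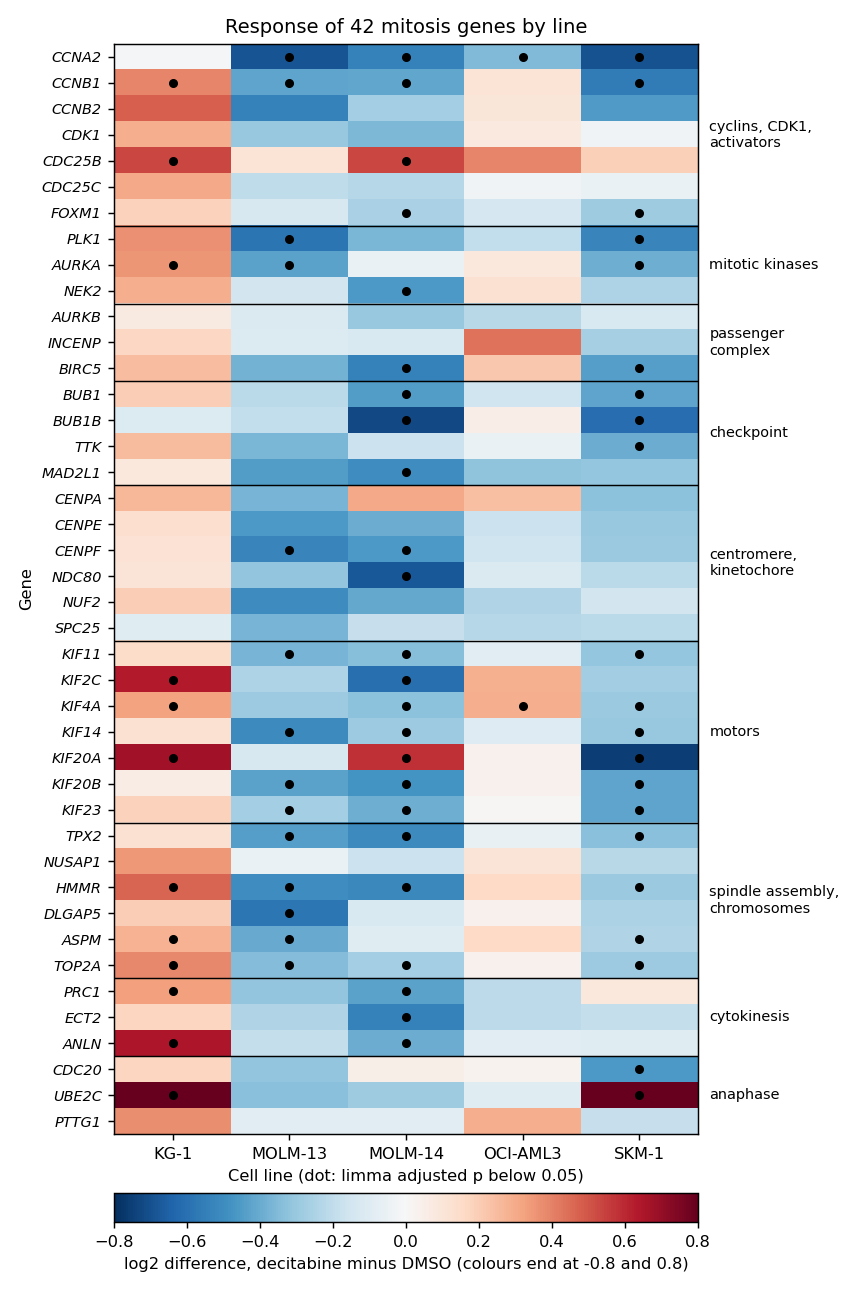
Rows are the 42 genes by role, columns the 5 lines; colour is the log2 difference, decitabine minus DMSO, and ends at -0.8 and 0.8, and a dot marks limma's adjusted p below 0.05. The KG-1 column is mostly positive and those of MOLM-13, MOLM-14 and SKM-1 mostly negative; UBE2C in SKM-1 (3.35) and KG-1 (0.83) is beyond the scale.

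On the mean of the 5 lines, 21 of the 42 genes fell and 2 rose, against 7.52% and 12.0% of all tested genes, and the median difference was -0.14 against 0.06 over all tested genes. The mean hides opposite directions for 10 genes, which were called in both directions in different lines. Between KG-1 and the mean of the other 4 lines, 23 of the 42 responses differed. All 23 were higher in KG-1, against 1.92% of tested genes higher and 1.10% lower. Such a difference need not be a rise in KG-1, where CCNA2, KIF11, TPX2 and KIF14, among others, were not called. KG-1 was singled out because earlier results of these data showed it going another way. The p-values of this comparison do not allow for that choice. The count of falls was 9 without MOLM-13, 8 without SKM-1 and 1 on the mean of OCI-AML3, KG-1 and MOLM-14 alone, where only CCNA2 fell. It was 14 after scaling without mitochondrial genes and 16 after quantile normalization. The former scaling ended the calls of FOXM1, BIRC5, CENPE, NUF2, HMMR, DLGAP5 and TOP2A on the mean of the lines. Shares of all tested genes were not counted for these changed means. By an F-test in limma, 25 of the 42 responses differed between lines, against 9.46% of tested genes.

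Of the 7 cyclins, CDK1 and its activators, 3 fell and 1 rose on the mean of the lines. CCNA2 encodes cyclin A2, which drives S phase and entry into mitosis. In SKM-1, CCNA2 was 4496, 4660 and 4585 normalised counts with DMSO and 2892, 2903 and 2690 with decitabine. In MOLM-13 it was 3379, 3501 and 3027 with DMSO and 1951, 2181 and 1996 with decitabine. In MOLM-14 it was 2663, 2532 and 2695 with DMSO and 1895, 1648 and 1892 with decitabine. All decitabine libraries of these lines were below all DMSO libraries of the same line. In OCI-AML3 the CCNA2 values were 2930, 2744 and 2938 with DMSO and 2439, 1992 and 2343 with decitabine, again without overlap. In KG-1 they were 3313, 2895 and 3416 with DMSO and 3269, 2917 and 3338 with decitabine, and the groups overlapped. CCNA2 fell by 0.46 (SE 0.0389; limma adjusted p = 4.02e-09) on the mean of the lines, the smallest adjusted p of the 42 genes. It fell in 4 lines, by 0.69 in MOLM-13, 0.54 in MOLM-14, 0.35 in OCI-AML3 and 0.70 in SKM-1. The OCI-AML3 call was lost without DMSO replicate 1 or decitabine replicate 2 of that line.

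CCNB1 encodes cyclin B1, the partner of CDK1 at entry into mitosis. In KG-1, CCNB1 was 2735, 3092 and 3165 with DMSO and 3741, 4174 and 3868 with decitabine. In SKM-1 it was 4268, 4633 and 4057 with DMSO and 3193, 3024 and 2588 with decitabine. The 2 lines moved in opposite directions, each without overlap. MOLM-13 had CCNB1 values of 2970, 2897 and 3145 with DMSO and 2129, 2376 and 2209 with decitabine. MOLM-14 had 1753, 1803 and 1824 with DMSO and 1386, 1239 and 1413 with decitabine. OCI-AML3 had 2523, 2451 and 2537 with DMSO and 3066, 2495 and 2579 with decitabine, the only line in which the groups overlapped. CCNB1 rose by 0.39 in KG-1 (limma adjusted p = 0.0102) and fell by 0.42 in MOLM-13 (adjusted p = 0.00804), by 0.42 in MOLM-14 (0.00319) and by 0.56 in SKM-1 (9.24e-05). The difference between KG-1 and the other lines was 0.71 (SE 0.1, limma adjusted p = 1e-04). The KG-1 call was lost without DMSO replicate 1 or decitabine replicate 2 of KG-1.

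CDC25B, a phosphatase that activates CDK1, was higher by sign in all 5 lines and was called in KG-1 and MOLM-14. Most other genes of the list were also higher in KG-1, and most were lower in MOLM-14. In MOLM-13 and SKM-1, CDC25B was not called (0.11 and 0.19, limma adjusted p = 0.95 and 0.516). CDC25B in MOLM-14 was 566, 567 and 502 with DMSO and 728, 980 and 686 with decitabine. In KG-1 it was 850, 747 and 800 with DMSO and 1095, 1278 and 1110 with decitabine. Both lines showed higher values in all decitabine libraries. For CDC25B the OCI-AML3 libraries read 867, 1251 and 925 with DMSO and 1376, 1231 and 1330 with decitabine. The MOLM-13 libraries read 733, 719 and 799 with DMSO and 744, 825 and 857 with decitabine. The SKM-1 libraries read 337, 366 and 365 with DMSO and 415, 384 and 423 with decitabine. Groups overlapped in MOLM-13 and OCI-AML3 and did not in SKM-1. CDC25B rose by 0.35 on the mean of the lines (SE 0.0573; limma adjusted p = 6.76e-05), by 0.54 in KG-1 and by 0.53 in MOLM-14. Its KG-1 call was lost without DMSO replicate 2 or decitabine replicate 2 of KG-1, and its MOLM-14 call without decitabine replicate 2 of MOLM-14. The F-test gave an adjusted p of 0.298 in limma for a difference of its response between lines.

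FOXM1, the transcription factor of late cell cycle genes, fell by 0.12 on the mean of the lines (limma adjusted p = 0.0199), and was called in MOLM-14 (-0.26) and SKM-1 (-0.28). CCNB2 (cyclin B2), CDK1 and the phosphatase CDC25C had mean differences of -0.14, -0.06 and -0.04, and none of them passed the test in any line.

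Of the 3 mitotic kinases, PLK1, which drives centrosome maturation and spindle assembly, fell by 0.26 on the mean of the lines (limma adjusted p = 0.00176). PLK1 fell in MOLM-13 (-0.59) and SKM-1 (-0.53), and its value in KG-1 was 0.37 (adjusted p = 0.144). AURKA, the kinase of spindle poles, rose in KG-1 (0.36) and fell in MOLM-13 (-0.43) and SKM-1 (-0.39). NEK2, which separates centrosomes, was called in MOLM-14 alone (-0.46), and its KG-1 value was 0.29 (limma adjusted p = 0.147). Responses of all 3 kinases differed between KG-1 and the other lines, by 0.79 for PLK1, 0.55 for AURKA and 0.48 for NEK2 (limma adjusted p = 0.00238, 0.00199 and 0.0214).

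Of the chromosomal passenger complex, which corrects faulty attachments, BIRC5 (survivin) fell by 0.18 on the mean of the lines (limma adjusted p = 0.018). BIRC5 fell in MOLM-14 (-0.54) and SKM-1 (-0.44). The kinase AURKB and its scaffold INCENP had mean differences of -0.14 and 0.02 and were called in no line.

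In the spindle checkpoint, 3 of 4 genes fell on the mean of the lines. BUB1B encodes BubR1, which holds back the activator of the anaphase-promoting complex. BUB1B in MOLM-14 was 1979, 2539 and 2089 with DMSO and 1301, 1410 and 1278 with decitabine. In SKM-1 it was 3520, 3552 and 3452 with DMSO and 2338, 2171 and 2395 with decitabine. Neither line had overlapping groups. BUB1B read 2207, 1899 and 2139 with DMSO and 1676, 1958 and 1807 with decitabine in MOLM-13. It read 2238, 2086 and 2287 with DMSO and 2931, 2356 and 1717 with decitabine in OCI-AML3. The KG-1 libraries read 2741, 3219 and 2676 with DMSO and 2310, 2908 and 2790 with decitabine. All these groups overlapped. BUB1B fell by 0.32 on the mean (SE 0.0603; limma adjusted p = 0.000382), by 0.72 in MOLM-14 and by 0.61 in SKM-1, and its KG-1 difference of -0.11 was the most negative of the list there. BUB1, a checkpoint kinase, fell in MOLM-14 (-0.44) and SKM-1 (-0.42), and MAD2L1 (Mad2) in MOLM-14 (-0.50). The checkpoint kinase TTK fell in SKM-1 (-0.40), and on the mean of the lines its difference was -0.15 (limma adjusted p = 0.0581).

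At the centromere and kinetochore, 5 of 6 genes fell on the mean of the lines and none rose in any line. CENPF, a large protein of the outer kinetochore, gave values in MOLM-13 of 9254, 9466 and 8455 with DMSO and 6219, 6257 and 6312 with decitabine. In MOLM-14 CENPF was 13854, 14483 and 14728 with DMSO and 11510, 10008 and 9874 with decitabine. In SKM-1 CENPF was 19068, 17845 and 19193 with DMSO and 15965, 14335 and 15405 with decitabine. The groups did not overlap in these lines. OCI-AML3 had CENPF values of 18004, 18910 and 18923 with DMSO and 15605, 19397 and 15317 with decitabine. KG-1 had 9885, 12915 and 9566 with DMSO and 11259, 12817 and 10792 with decitabine, and both lines overlapped. CENPF fell by 0.27 on the mean of the lines (SE 0.0439; limma adjusted p = 8.02e-05), by 0.53 in MOLM-13 and by 0.46 in MOLM-14. In SKM-1 its difference was -0.30 (limma adjusted p = 0.0609).

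SPC25 joins NDC80 and NUF2 in the complex that grips microtubules. SPC25 in MOLM-13 was 729, 821 and 834 with DMSO and 598, 642 and 596 with decitabine. In SKM-1 it was 1160, 1291 and 1257 with DMSO and 974, 1073 and 1154 with decitabine. These groups did not overlap, though neither line passed the test. SPC25 in MOLM-14 was 414, 328 and 489 with DMSO and 318, 412 and 342 with decitabine. OCI-AML3 had 515, 494 and 661 with DMSO and 496, 396 and 531 with decitabine for SPC25. KG-1 had 434, 505 and 485 with DMSO and 424, 428 and 482 with decitabine. SPC25 overlapped in all of the latter and fell by 0.22 on the mean of the lines (SE 0.0634; limma adjusted p = 0.0149). NDC80 fell in MOLM-14 (-0.68). NUF2 and the kinetochore motor CENPE fell on the mean only (-0.22 and -0.24), and both calls were lost under a change of scaling. CENPE was also lost without MOLM-13 DMSO replicate 1 or OCI-AML3 DMSO replicate 1. The centromeric histone CENPA had a mean difference of 0.02, with the lowest value in MOLM-13 (-0.37) and the highest in MOLM-14 (0.30).

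Of 7 spindle and midzone motors, 4 fell on the mean of the lines: KIF11, KIF14, KIF20B and KIF23. KIF11 (Eg5) slides antiparallel microtubules apart to make the spindle bipolar. KIF11 in MOLM-13 was 2560, 2610 and 2442 with DMSO and 1894, 1994 and 1985 with decitabine. In MOLM-14 KIF11 was 4116, 3731 and 4195 with DMSO and 3257, 2876 and 3391 with decitabine. In SKM-1 KIF11 was 4680, 4732 and 4638 with DMSO and 3852, 3781 and 3695 with decitabine. Decitabine libraries were lower without exception in these lines. OCI-AML3 gave KIF11 values of 3661, 3510 and 3547 with DMSO and 3318, 3272 and 3485 with decitabine, with no overlap. KG-1 gave 3522, 3106 and 3663 with DMSO and 3888, 3558 and 3948 with decitabine, with overlap. KIF11 fell by 0.19 on the mean (SE 0.0324; limma adjusted p = 9.38e-05), by 0.37 in MOLM-13, 0.34 in MOLM-14 and 0.31 in SKM-1.

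KIF20A (MKLP2) carries the passenger complex to the midzone, and its response split the lines. KIF20A in SKM-1 was 1586, 1581 and 1614 with DMSO and 992, 950 and 895 with decitabine. In MOLM-14 it was 686, 599 and 646 with DMSO and 899, 1112 and 893 with decitabine. In KG-1 it was 771, 541 and 754 with DMSO and 1023, 1279 and 971 with decitabine. KIF20A was lower in all decitabine libraries of SKM-1 and higher in all those of MOLM-14 and KG-1. MOLM-13 had 820, 828 and 859 with DMSO and 752, 723 and 821 with decitabine for KIF20A. OCI-AML3 had 1349, 937 and 1098 with DMSO and 972, 1214 and 1259 with decitabine. Both of these overlapped. KIF20A rose by 0.67 in KG-1 (limma adjusted p = 0.00483) and by 0.58 in MOLM-14 (0.00795), and fell by 0.75 in SKM-1 (0.00061). Its KG-1 call was lost without DMSO replicate 2 of KG-1. The responses of MOLM-13 and MOLM-14 differed by -0.71 (SE 0.2), which missed the threshold (limma adjusted p = 0.0766).

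KIF4A, a chromosome-bound kinesin that limits the growth of midzone microtubules, was the only member that rose in OCI-AML3. KIF4A in KG-1 was 1347, 1261 and 1296 with DMSO and 1549, 1726 and 1600 with decitabine. In OCI-AML3 KIF4A was 1167, 1171 and 1250 with DMSO and 1578, 1542 and 1291 with decitabine. In MOLM-14 KIF4A was 1016, 955 and 985 with DMSO and 872, 704 and 790 with decitabine. The first 2 lines were higher and the last lower, each without overlap. MOLM-13 gave KIF4A values of 939, 936 and 892 with DMSO and 727, 768 and 769 with decitabine. SKM-1 gave 2070, 2149 and 2066 with DMSO and 1709, 1733 and 1666 with decitabine, also lower without overlap. KIF4A rose by 0.32 in KG-1 and 0.29 in OCI-AML3, and fell by 0.33 in MOLM-14 and 0.30 in SKM-1 (limma adjusted p = 0.0271, 0.0381, 0.012 and 0.0212). Its rise in OCI-AML3 was lost without any of 7 libraries: DMSO replicate 1 or 2 or decitabine replicate 1 or 2 of OCI-AML3, or DMSO replicate 3 or decitabine replicate 1 or 2 of SKM-1. The KG-1 rise was lost without DMSO replicate 2 or 3 or decitabine replicate 2 or 3 of KG-1. KIF2C (MCAK), which removes tubulin from microtubule ends, rose in KG-1 (0.63) and fell in MOLM-14 (-0.60). The cytokinesis motors KIF14, KIF20B and KIF23 fell by 0.22, 0.25 and 0.18 on the mean of the lines, with KG-1 values of 0.12, 0.06 and 0.18.

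TPX2 activates AURKA and starts microtubules around chromosomes. TPX2 in MOLM-14 was 4063, 4560 and 4225 with DMSO and 3051, 2900 and 3058 with decitabine. In MOLM-13 TPX2 was 4714, 4468 and 4509 with DMSO and 3223, 3345 and 3538 with decitabine. In SKM-1 TPX2 was 7169, 7204 and 6980 with DMSO and 5690, 5653 and 5599 with decitabine. Every decitabine library was below its DMSO group in these lines. OCI-AML3 had TPX2 values of 6052, 6414 and 6076 with DMSO and 6116, 6178 and 5527 with decitabine. KG-1 had 5651, 6520 and 5748 with DMSO and 6162, 7036 and 6316 with decitabine, and both lines overlapped. TPX2 fell by 0.24 on the mean (SE 0.0307; limma adjusted p = 2.11e-06), by 0.44 in MOLM-13, 0.51 in MOLM-14 and 0.33 in SKM-1. Its response in KG-1 differed from the other lines by 0.46 (SE 0.0767; limma adjusted p = 0.000797).

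HMMR, a microtubule-binding protein of the spindle, had the smallest F-test p of the genes called in both directions. HMMR in KG-1 was 1529, 1408 and 1547 with DMSO and 2012, 2000 and 2177 with decitabine. In MOLM-13 it was 3441, 3255 and 2964 with DMSO and 2206, 2272 and 2356 with decitabine. In MOLM-14 it was 2496, 2501 and 2626 with DMSO and 1974, 1548 and 1846 with decitabine. KG-1 moved up and both sister lines down, each without overlap. SKM-1 had HMMR values of 4200, 3870 and 3948 with DMSO and 3172, 3209 and 3405 with decitabine. OCI-AML3 had 4336, 4246 and 3892 with DMSO and 4922, 4738 and 4266 with decitabine, and only these groups overlapped. HMMR rose by 0.46 in KG-1 (limma adjusted p = 0.00102) and fell by 0.50 in MOLM-13, 0.51 in MOLM-14 and 0.30 in SKM-1. The difference of KG-1 from the other lines was 0.75 (SE 0.0937; limma adjusted p = 2.07e-05).

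TOP2A, the topoisomerase that untangles sister chromatids, followed the same split. TOP2A in KG-1 was 16847, 17155 and 18981 with DMSO and 21675, 22647 and 24850 with decitabine. In MOLM-13 it was 14298, 14458 and 13577 with DMSO and 10499, 11362 and 11434 with decitabine. In SKM-1 it was 28395, 28651 and 27426 with DMSO and 24210, 22429 and 22536 with decitabine. None of these overlapped. MOLM-14 had TOP2A values of 11867, 11306 and 12906 with DMSO and 10131, 8987 and 10873 with decitabine. OCI-AML3 had 16113, 15459 and 17426 with DMSO and 17037, 16126 and 17034 with decitabine. The MOLM-14 groups did not overlap and those of OCI-AML3 did. TOP2A rose by 0.38 in KG-1 and fell by 0.35 in MOLM-13, 0.27 in MOLM-14 and 0.29 in SKM-1. Its fall on the mean of the lines (-0.10, limma adjusted p = 0.0373) was lost on leaving out any of 14 of the 30 libraries, singly.

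Of the remaining spindle genes, DLGAP5 (HURP), which stabilises kinetochore fibres, fell in MOLM-13 (-0.58). ASPM, which focuses spindle poles, rose in KG-1 (0.28) and fell in MOLM-13 (-0.40) and SKM-1 (-0.24), and NUSAP1, a microtubule bundler, was not called (mean 0.00). None of the 3 cytokinesis genes was called on the mean of the lines by limma, and 2 of them had an unadjusted p below 0.05. PRC1, which bundles midzone microtubules, and ANLN (anillin), a scaffold of the contractile ring, rose in KG-1 (0.33 and 0.65) and fell in MOLM-14 (-0.43 and -0.39). ECT2, the activator of RhoA at the division site, fell in MOLM-14 (-0.54).

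UBE2C, the ubiquitin-conjugating enzyme that works with the anaphase-promoting complex, was the exception in SKM-1. UBE2C in SKM-1 was 10.3, 9.09 and 4.75 with DMSO and 91.5, 81.6 and 90.6 with decitabine. In KG-1 UBE2C was 216, 381 and 312 with DMSO and 476, 561 and 543 with decitabine. In MOLM-13 UBE2C was 711, 743 and 745 with DMSO and 578, 590 and 575 with decitabine. It was higher without overlap in the first 2 lines and lower without overlap in MOLM-13. MOLM-14 had UBE2C values of 630, 764 and 794 with DMSO and 537, 583 and 675 with decitabine. OCI-AML3 had 1136, 1218 and 1159 with DMSO and 828, 1247 and 1266 with decitabine. Groups overlapped in both. The DMSO mean of SKM-1 was 8.06 ± 2.94 (SD, n = 3) and the decitabine mean 87.9 ± 5.51 (SD, n = 3), a ratio of 10.9, and both stayed below every library of the other lines. UBE2C rose by 3.35 in SKM-1 (SE 0.206; limma adjusted p = 1.99e-11) and by 0.83 in KG-1 (adjusted p = 0.0192). Its rise on the mean of the lines (0.69, adjusted p = 4.66e-06) was carried by SKM-1: without that line the mean was 0.03 (limma adjusted p = 0.892). The KG-1 call was lost without DMSO replicate 1 or decitabine replicate 2 or 3 of KG-1. UBE2C lies at chr20:45812576-45816957 on the + strand (GENCODE 29, GRCh38). Its retrocopies UBE2CP1, UBE2CP2, UBE2CP3 and UBE2CP4 had values of at most 7.42 in any library. CDC20, the activator of the anaphase-promoting complex, fell in SKM-1 (-0.46), and securin, PTTG1, was called in no line (mean 0.06).

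**Figure D3:**
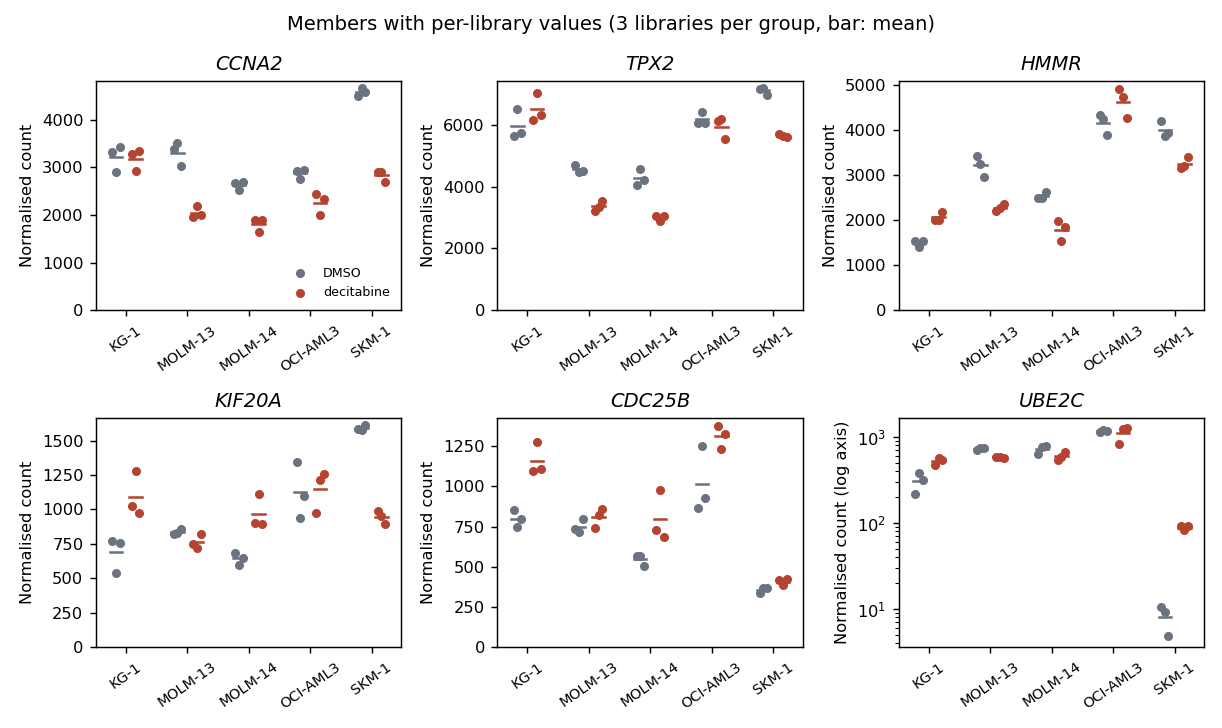
Normalised counts of 6 genes in every library (points) with group means (bars), 3 libraries per line and treatment; the UBE2C panel has a log axis and the others start at 0. CCNA2 and TPX2 are lower after decitabine in MOLM-13, MOLM-14 and SKM-1, HMMR and KIF20A move in opposite directions in different lines, and UBE2C in SKM-1 rises from 8.06 to 87.9.

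In KG-1 against the other lines, all 42 differences of response were positive in sign, with a median of 0.46 and values from 0.16 (SPC25) to 0.84 (KIF2C). The test passed for 23 of them, including ANLN (0.84; limma adjusted p = 0.000842), KIF20A (0.74; 0.00787) and CCNA2 (0.56; 0.00137). The KG-1 value of CCNA2 itself was -0.01, so that its difference came from the falls in the other lines. UBE2C (0.17) and CDC25B (0.23) were not called in this comparison. Calls of 10 genes here were lost without a single library: those of FOXM1, NEK2, BIRC5, BUB1, TTK, CENPF, KIF2C, KIF14, KIF20A and DLGAP5. Between the sister lines MOLM-13 and MOLM-14, limma called 0 of 42 differences (0.798% of tested genes lower and 0.636% higher). At an unadjusted p below 0.05 there were 9, and with library weights or without the 6 shallow libraries 3 were called lower in MOLM-13. Shares of all tested genes were not counted for these settings. Across the 41 genes other than UBE2C, Pearson's r between the responses of 2 lines ran from 0.0863 (MOLM-14 and SKM-1) to 0.474 (KG-1 and OCI-AML3). It was 0.404 for MOLM-13 and SKM-1, or 0.118 over all 42 genes, and 0.359 for MOLM-13 and MOLM-14. Genes are not independent replicates, and lines differ in depth.

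**Figure D4:**
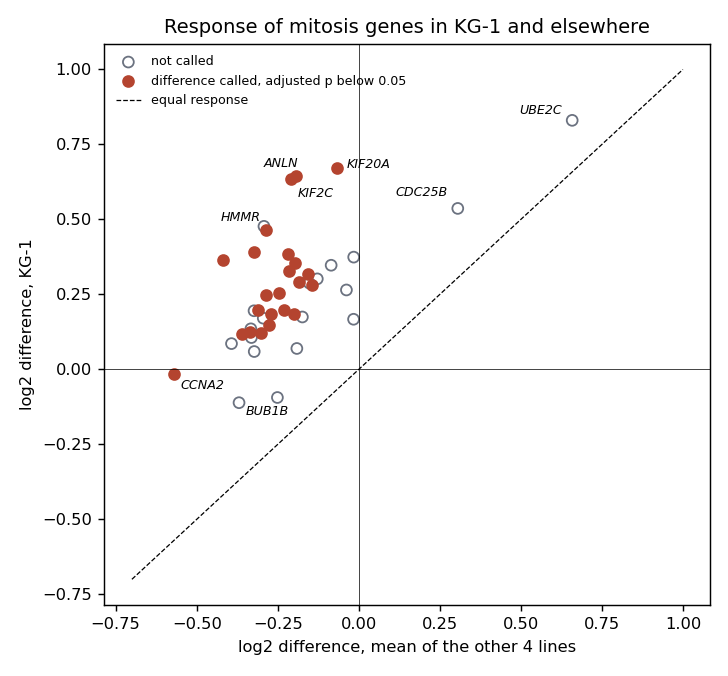
Each point is 1 of the 42 genes; the horizontal axis is the mean log2 difference (decitabine minus DMSO) of the other 4 lines, the vertical axis that of KG-1. All points lie above the dashed line of equal response, and filled points are the 23 genes whose difference passed the test.

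Other genes of mitosis, 111 in 6 lists, were tested in the same fit. In KG-1 0 of them fell and 3 rose (2.7%, against 3.12% of all tested genes). In that line 17 had an unadjusted p below 0.05 in limma, a threshold at which all tested genes were not counted. In OCI-AML3 1 fell (0.901%, against 1.64%) and 2 rose (1.8%, against 3.74%). The shares in these lines were no larger than over all tested genes. In MOLM-13 11 fell (9.91%, against 1.67%) and 0 rose. In MOLM-14 31 fell (27.9%, against 4.77%) and 1 rose. In SKM-1 19 fell (17.1%, against 3.32%) and 1 rose. On the mean of the lines 33 fell (29.7%, against 7.52%) and 2 rose (1.8%, against 12.0%), with a median of -0.10. Of 22 kinetochore and checkpoint genes 8 fell, among them CENPH of the inner kinetochore (-0.54) and SKA3, which couples kinetochores to microtubule ends (-0.49). Of 18 genes of the MuvB, B-MYB and E2F regulators 8 fell, among them RBL1 (p107, -0.29), TFDP1, the partner of E2F (-0.29), and RB1 (-0.23). Of 15 genes of condensin and cohesin control 5 fell, among them the condensin subunits SMC2 (-0.31) and NCAPH (-0.31), and HASPIN, which marks centromeric histone H3 (-0.27). Of 25 other spindle and cytokinesis genes 4 fell, among them the motor KIF15 (-0.45) and the passenger protein CDCA8 (-0.27). Of 17 genes of the anaphase-promoting complex and its control 4 fell, among them the inhibitor FBXO5 (-0.22) and the subunit ANAPC1 (-0.25).

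Of 14 genes that control entry into mitosis, 4 fell (28.6%, against 7.52% of all tested genes) and 2 rose (14.3%, against 12.0%, a share near that of all genes). CHEK1, the checkpoint kinase that restrains CDC25 phosphatases, fell by 0.43 on the mean of the lines (limma adjusted p = 5.81e-06). CDKN1A, which encodes the CDK inhibitor p21, rose by 0.98 (SE 0.1018; limma adjusted p = 1.162e-07). CDKN1A in KG-1 was 14.5, 6.15 and 13.1 with DMSO and 58.7, 23.9 and 34.0 with decitabine. In MOLM-14 CDKN1A was 3537, 3187 and 2955 with DMSO and 6600, 6137 and 6076 with decitabine. All decitabine libraries were higher in both lines. CDKN1A in SKM-1 was 381, 367 and 344 with DMSO and 856, 847 and 700 with decitabine. In MOLM-13 CDKN1A was 3510, 3306 and 3410 with DMSO and 5510, 5712 and 5791 with decitabine. In OCI-AML3 it was 392, 369 and 390 with DMSO and 457, 511 and 545 with decitabine. The groups did not overlap in any line, and the level was lowest in KG-1. The step between low values was 6.64 in DMSO replicate 2 of KG-1 and 4.30 in its decitabine replicate 2. The CDKN1A values of these shallow libraries, 6.15 and 23.9, therefore rest on few reads. CDKN1A rose in KG-1 (1.68), MOLM-14 (0.96) and SKM-1 (1.13), while MOLM-13 (0.73) and OCI-AML3 (0.39) missed the threshold (limma adjusted p = 0.08646 and 0.3802).

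Among the 36 genes with a promoter window, 26 held the hexamer TTTGAA on either strand, and 14 of these fell and 0 rose on the mean of the lines. Of the 10 without it, 4 fell and 1 rose. The medians of the differences were -0.14 and -0.11 on the mean of the lines, 0.20 and 0.33 in KG-1 and 0.02 and 0.07 in OCI-AML3. They were -0.36 and -0.18 in MOLM-13, -0.35 and -0.41 in MOLM-14 and -0.29 and -0.29 in SKM-1, so that the order of the classes was not the same in each line. These counts describe the genes and were not tested.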

How the data were processed

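The deposited values are a signal per gene in 30 libraries. By its name, the authors' table holds counts normalised with DESeq2. The values are called normalised counts here and are not logged. Tools named in the submitters' processing notes, without their roles, are limma, DESeq2, featureCounts, STAR and Salmon 1.2.1, with the build hg38. Between 44.2% and 68.6% of low values were whole multiples of a library's step (tolerance 0.02), so reads were not recovered and no count model was run. For OCI-AML3, KG-1 and MOLM-14, columns were tied to labels through line name, replicate number and a treatment letter, read as for SKM-1 and MOLM-13. The design text does not name MOLM-14. The 12 labelled libraries of other lines and 12 columns of other samples were not analysed here.

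limma 3.58.1 (R 4.3.3) fitted log2(value + 1) with 10 group means, trend and robust variances, and Benjamini-Hochberg adjustment over 22168 genes. Contrasts were decitabine minus DMSO per line, the mean of the 5, KG-1 minus the other lines, MOLM-13 minus MOLM-14, and an F-test between lines; the code was tested on simulated data. Fold changes on this scale understate low genes. Values in every library are given for the 6 members with the smallest adjusted p of the mean and of the F-test, the largest rise, and the 2 largest changes each way in KG-1. Of the other mitosis genes, those named had the smallest adjusted p of their list on the mean; levels of CDKN1A were shown after its values were seen. Members, lists and the comparison of KG-1 with the other lines were chosen with earlier results of these data known. Retrocopies of members could share reads. Of 15 listed, 3 reached 10 in any library (AURKAP1, KIF4B and NEK2P4).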

Additional observations from a re-analysis of the deposited data

Results flagged for a closer look

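The response to decitabine differed between the 5 lines for 25 of the 42 genes by an F-test in limma, and these differences were tested as such. The adjusted p was 7e-09 for UBE2C, which rose in SKM-1 and KG-1 only. It was 3.23e-06 for HMMR, 1.94e-05 for CCNB1, 5.96e-05 for TOP2A, 9e-05 for KIF20A, 0.000121 for KIF4A, 0.000218 for ASPM and 0.000386 for AURKA, all of which rose in KG-1 and fell in at least 1 other line. It was 0.00146 for PRC1, 0.00255 for ANLN and 0.00807 for KIF2C, which rose in KG-1 and fell in MOLM-14.

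The other genes fell in some lines and rose in none. The adjusted p by limma was 0.000174 for TPX2, 0.000725 for KIF23, 0.0015 for CCNA2, 0.00328 for KIF11, 0.00799 for KIF20B and 0.0188 for KIF14. It was 0.00198 for BIRC5, 0.00385 for DLGAP5, 0.00469 for PLK1, 0.00547 for CDC20, 0.00604 for NEK2, 0.0139 for CENPF, 0.0239 for BUB1 and 0.0244 for BUB1B. The response in KG-1, a line singled out with earlier results of these data known, differed from the mean of the other 4 lines for 23 genes.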

How the results depend on the processing

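How often calls of single genes held cannot be compared between the mean of the lines and a single line. A left-out library is a smaller part of the mean, which rests on 30 libraries, than of a line, which has 6. Leaving out a whole line was not among the settings counted here and is given below. Of 23 calls on the mean, 16 held without each library in turn, under both other scalings and without the 6 shallow libraries. The same held for 3 of 12 calls in KG-1 (HMMR, TOP2A and ANLN), 4 of 14 in MOLM-13, 12 of 24 in MOLM-14, 0 of 2 in OCI-AML3, 10 of 21 in SKM-1 and 13 of 23 for KG-1 against the other lines.

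Counts of falls on the mean of the lines were 9 without MOLM-13 and 8 without SKM-1; 2 means added after seeing the data gave 37 (MOLM-13 and SKM-1 alone) and 1 (the other 3 lines alone). Fits on the 6 libraries of a line gave 0 rises in KG-1, 28 falls in MOLM-13, 1 fall and 0 rises in MOLM-14, 0 and 0 in OCI-AML3 and 33 falls in SKM-1. Over all genes, both directions together, they called 4918 of 15589 in MOLM-13 and 7447 of 16977 in SKM-1. Library weights gave 31 falls in MOLM-13, 0 in OCI-AML3, 33 falls and 2 rises in SKM-1, and 3 genes lower in MOLM-13 than in MOLM-14. Without the 6 shallow libraries there were 25 falls in MOLM-13, 3 in OCI-AML3 and 3 genes lower in MOLM-13 than in MOLM-14. Quantile normalization gave 4 falls in MOLM-13 and 12 in SKM-1. Scaling without mitochondrial genes gave 12 falls in SKM-1 and 0 rises in OCI-AML3. The absence of a filter on low values also gave 0 rises in OCI-AML3. Beyond the main fit, calls over all genes were counted only within lines, for fits of a line alone and both other scalings. Whether other changes in count follow the number of calls over all genes was not tested.

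Among the genes with values in every library, signs on the mean of the lines turned in 9 cases. The mean of OCI-AML3, KG-1 and MOLM-14 alone was 0.0365 for HMMR, 0.0286 for CCNB1, 0.0505 for TOP2A and 0.0953 for KIF4A, and without MOLM-14 the KIF4A mean was 0.0059. Outside these genes, signs of further members also turned on the mean of OCI-AML3, KG-1 and MOLM-14 alone. DLGAP5, AURKA, CCNB2 and CDC20 were among them, and the list is not complete. CDC20 was positive in each of these lines (0.03, 0.17 and 0.05) and -0.10 on the mean of all 5. KIF20A was -0.0411 without the 6 shallow libraries, -0.0668 without KG-1, -0.0448 without MOLM-14 and -0.4412 on MOLM-13 and SKM-1 alone.

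With 1 library left out, falls on the mean numbered 20 to 23 and rises 2 to 2. In KG-1 rises were 6 to 12 and falls 0 to 0: 7 without DMSO replicate 1 or decitabine replicate 2, and 6 without DMSO replicate 2 or decitabine replicate 3. MOLM-13 had 8 to 17 falls (8 without its decitabine replicate 1) and 0 to 0 rises. MOLM-14 had 15 to 23 falls and 0 to 2 rises (0 without its decitabine replicate 2). OCI-AML3 had 0 to 1 falls and 0 to 2 rises, and SKM-1 12 to 21 falls and 1 to 1 rises (13 falls without its decitabine replicate 2, 12 without replicate 3). KG-1 against the other lines gave 18 to 26 higher and 0 to 0 lower, MOLM-13 against MOLM-14 0 to 1 lower and 0 to 0 higher, and the F-test 23 to 29. The cause of these changes was not tested.

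The labels do not say that a replicate number marks a shared culture or batch. The correlation of deviations of same-numbered libraries ran from -0.0225 to 0.153 and was not over 0.1 in every pair, so the numbers were not taken as a pairing. In 12 of 15 pairs the library correlated best with its own number, a hint from the data, and replicate 2 was shallow in both arms of 3 lines. In those lines, KG-1, MOLM-14 and OCI-AML3, every pair matched, with correlations from 0.0703 to 0.153. The exceptions were replicates 1 and 2 of MOLM-13 and replicate 1 of SKM-1, lines with correlations from -0.0225 to 0.0408. With a replicate block the counts were 24 falls and 2 rises on the mean, 13 rises in KG-1, 18 falls in MOLM-13, 22 falls in MOLM-14, 22 falls in SKM-1, 27 for KG-1 against the other lines and 30 for the F-test, and rises in OCI-AML3 went from 1 to 2.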
